A study of Mus musculus with 12 samples.

Results

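The chromatin of 9 mouse genes of the canonical Wnt pathway was followed through reprogramming of fibroblasts to induced pluripotent stem cells (iPSC). They are the effector genes Ctnnb1, Tcf7, Lef1, Tcf7l1 and Tcf7l2, the feedback gene Axin2, and the target genes Sp5, T and Evx1. The assay was ATAC-seq, in which a transposase cuts accessible DNA, so the values are accessibility near a gene and not its expression. A deposited region was taken as belonging to a gene when it overlapped the gene's mm10 span or lay within 10 kb of either end, which gave 75 of the 115000 counted regions. The 9 genes are among 18088 protein-coding genes with at least 1 region. The set was selected on measured values: it was chosen because the accessibility of Axin2 and Lef1 moved in opposite directions between Stage 1 and Stage 2. The Stage 2 against Stage 1 values of the 9 genes are therefore given as a description with no test. So are the Axin2 and Lef1 values that set either of these stages against MEF or iPSC, since they use the same libraries.

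Each of 4 groups had 3 libraries: unsorted mouse embryonic fibroblasts (MEF), Oct4-GFP+ cells of Stage 1 (day 6), Oct4-GFP+ cells of Stage 2 (day 6 and 4 further days), and Oct4-GFP+ iPSC. All groups had a mixed C57BL/6 x 129 background. The labels call the procedure 3c enhanced reprogramming, and what 3c stands for and which reprogramming factors were used are not given in the sources used here. Since only MEF were unsorted, sorting and stage cannot be told apart in any comparison with MEF.

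In the canonical Wnt pathway, a Wnt ligand at its receptor stops the destruction complex, built on the scaffold proteins Axin and Apc, from marking β-catenin (Ctnnb1) for degradation. β-catenin then enters the nucleus and binds the TCF/LEF proteins (Tcf7, Lef1, Tcf7l1, Tcf7l2), which sit on DNA and repress target genes when β-catenin is absent. Axin2 is a direct target that feeds back on the destruction complex. Sp5 encodes a zinc-finger factor induced directly by the pathway, and T (brachyury) and Evx1 encode transcription factors of the primitive streak, where Wnt signalling is active in the embryo. In mouse pluripotent cells Tcf7l1 is known mainly as a repressor of pluripotency genes, and relief of that repression is a known effect of Wnt signalling there.

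The TCF/LEF proteins read short words built on a common core, so the DNA just before the start sites was searched on both strands for 4 such words: the word CTTTGAA, the word CTTTGAT, the word CTTTGTA and the word CTTTGTT, none of which contains another. The windows are the 250 bases before each RefSeq start (GRCm38.p6, which is mm10), 5′ to 3′ along the gene, with each word found in capitals. All 9 genes had a RefSeq entry, with 15 windows in all. The 4 printed here belong to the 2 genes that moved in opposite directions, Axin2 and Lef1, to a start inside Lef1, and to Sp5, which holds the most words of the 9 genes. The Axin2 window is chr11:108920099-108920348 (+), the Lef1 window chr3:131110047-131110296 (+), the internal Lef1 window chr3:131156044-131156293 (+), and the Sp5 window chr2:70474673-70474922 (+).
Axin2 promoter: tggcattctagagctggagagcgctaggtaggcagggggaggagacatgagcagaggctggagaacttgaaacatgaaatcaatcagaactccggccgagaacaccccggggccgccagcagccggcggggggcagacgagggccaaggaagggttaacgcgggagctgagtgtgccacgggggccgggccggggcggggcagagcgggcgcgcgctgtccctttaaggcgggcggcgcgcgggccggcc
Lef1 promoter: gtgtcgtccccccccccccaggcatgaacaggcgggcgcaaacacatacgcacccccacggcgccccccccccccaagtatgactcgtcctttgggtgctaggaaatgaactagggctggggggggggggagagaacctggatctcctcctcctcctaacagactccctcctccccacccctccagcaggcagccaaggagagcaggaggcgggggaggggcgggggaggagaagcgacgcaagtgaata
Lef1 internal start: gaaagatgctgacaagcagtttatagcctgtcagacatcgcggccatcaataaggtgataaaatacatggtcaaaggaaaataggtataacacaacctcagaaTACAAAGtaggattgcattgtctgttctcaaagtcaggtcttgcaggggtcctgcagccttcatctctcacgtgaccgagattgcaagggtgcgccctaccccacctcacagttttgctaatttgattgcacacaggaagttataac
Sp5 promoter: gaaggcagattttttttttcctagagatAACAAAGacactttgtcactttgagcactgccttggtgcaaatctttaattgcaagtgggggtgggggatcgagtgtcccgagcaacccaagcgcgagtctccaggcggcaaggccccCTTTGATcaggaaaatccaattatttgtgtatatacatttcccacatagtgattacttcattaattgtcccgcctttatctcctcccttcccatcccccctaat

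The Axin2 and Lef1 promoter windows held none of the 4 words. The Sp5 window held 2, starting 222 and 104 bases before the start site, and 1.43% of the 32851 RefSeq windows of this length held 2 or more. The internal Lef1 window held 1, at 147 bases before the start. Of the 15 windows 4 held at least 1 word, 1 each in Lef1, Sp5, T and Tcf7l2, against 14.8% of all windows. These are letter matches, and no binding was measured at them.

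Between 1034936 and 6261903 reads per library fell in the counted regions. Their share of all reads was highest in the fibroblasts, at 16.7% ± 5.37 (SD, n = 3), and lower at each step: 7.64% ± 0.415 at Stage 1, 6.03% ± 0.813 at Stage 2 and 4.94% ± 0.395 for iPSC. Values below are reads in regions brought to a common library size (CPM) by trimmed-mean scaling, which sets the median gene near no change. When libraries were scaled to all their reads instead, the median gene moved by -0.96 (log2) between MEF and Stage 1, by -0.37 to Stage 2, by -0.33 from Stage 2 to iPSC and by -1.71 between MEF and iPSC. A difference smaller than that shift therefore can depend on the scaling, and reversals are named beside the values or with the effects of the processing. Summed CPM over 6 pluripotency genes (Pou5f1, Sox2, Nanog, Esrrb, Zfp42, Tdgf1) lay at 185–197 for MEF, 625–691 at Stage 1, 769–808 at Stage 2 and 613–678 for iPSC. For the same groups in turn, over 6 fibroblast genes (Twist2, Prrx1, Thy1, Col1a1, Col1a2, Pdgfra) it lay at 495–501, 209–236, 222–258 and 279–305, and over 4 epithelial genes at 49.0–77.6, 182–187, 195–208 and 154–178. The sums were 69.9–76.5, 68.7–81.3, 84.3–97.4 and 80.9–84.8 over 4 blood genes, and 157–161, 85.7–93.0, 107–110 and 142–155 over 4 endothelial genes. No marker was at 0 in any group, so in these bulk samples fewer cells with an open site and less opening per cell cannot be told apart, and the part of other cell types in the results was not tested.

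Axin2 and Lef1 were both more open in Stage 1 than in MEF and then parted: Axin2 was lower in all 3 Stage 2 libraries than in any Stage 1 library, and Lef1 was higher. In iPSC both lay between their Stage 1 and Stage 2 values, though Lef1 in iPSC lay below Stage 1 when libraries were scaled to all reads. T had almost no reads in MEF. The CPM of T and Evx1 was higher in every later library than in any MEF library, though iPSC and MEF differed by only 0.07 (log2) for Evx1 when libraries were scaled to all reads. Sp5 rose between MEF and Stage 1 and between MEF and iPSC, though not when libraries were scaled to all reads. The regions at the first start of Tcf7, Tcf7l1 and Tcf7l2 did not pass the edgeR test between MEF and Stage 1. Those of Tcf7 and Tcf7l2 did pass with some other settings, such as DESeq2, and that of Tcf7l1 passed as less open when libraries were scaled to all reads. The region at the internal Tcf7l2 start was called less open in Stage 1, a call lost in several other settings. The Ctnnb1 promoter region had its highest level in MEF. The 75 regions were unevenly spread: Tcf7l1 had 25, Tcf7l2 23, Lef1 9, Axin2 6, Tcf7 4, Ctnnb1 3, Sp5 2, Evx1 2 and T 1.

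**Figure D1:**
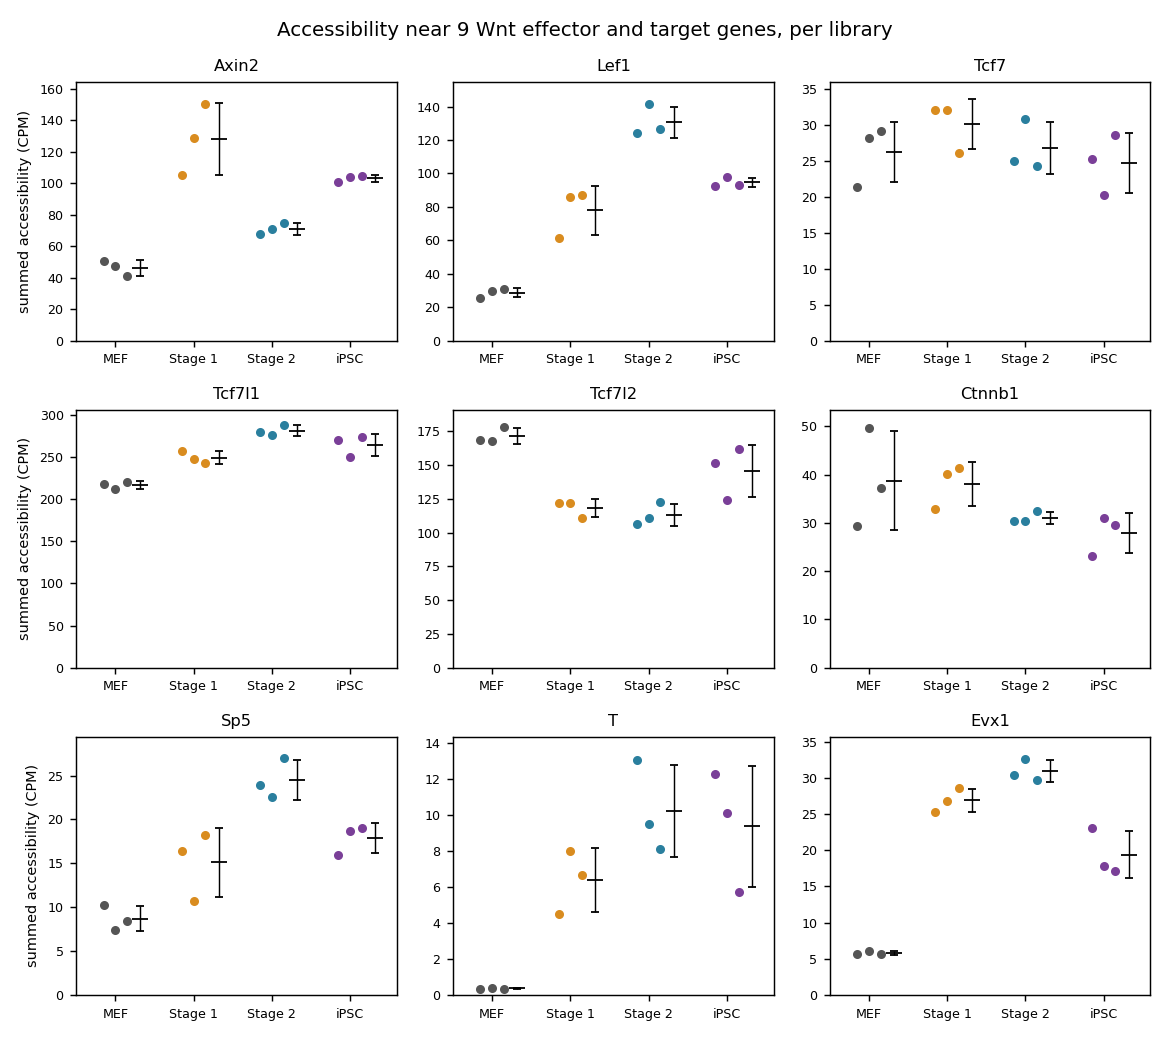
Accessibility near the 9 genes in each library, in CPM summed over a gene's regions on linear axes that start at 0, with 1 panel per gene; points are libraries, and the horizontal mark and bar are the mean ± SD of 3. Axin2 peaks in Stage 1 (mean 128) and Lef1 in Stage 2 (mean 131), and T is at 0.355 in MEF.

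Axin2 lies at chr11:108917828-108950783 on the plus strand of mm10, a span that holds the RefSeq start from which distances below are counted. Summed over its 6 regions it had 50.5, 47.4 and 40.7 CPM in MEF, 105, 128 and 151 in Stage 1, 67.4, 70.7 and 75.0 in Stage 2, and 101, 104 and 105 in iPSC. The Stage 1 libraries were all above those of Stage 2, and the lowest Stage 1 library lay level with the highest iPSC library. In log2 units Stage 1 was 1.46 ± 0.11 (SE) above MEF, Stage 2 was -0.86 ± 0.12 from Stage 1, and iPSC was 0.54 ± 0.13 above Stage 2. From MEF to iPSC the log2 difference was 1.13 ± 0.12 (edgeR, adjusted p = 1.03e-13), and it turned to -0.55 when libraries were scaled to all reads. The signal was 5.75, 8.0, 3.35 and 3.82 times the density of reads outside the regions for MEF, Stage 1, Stage 2 and iPSC, so by this measure too Stage 1 was highest, but iPSC was below MEF.

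Within Axin2, 4 of the 5 tested regions were lower in Stage 2 than in Stage 1 with no overlap between libraries. Over all tested regions edgeR called 6.14% more open and 4.3% less open between these stages. That is another measure, and the share of all regions without overlap between libraries was not computed. The promoter region, chr11:108920001-108921100, covers all 250 bases of the Axin2 window printed above and holds 51.2% of the gene's signal. It had 42.2, 41.7 and 33.3 CPM in MEF, 50.7, 58.2 and 69.6 in Stage 1, 30.9, 34.8 and 37.0 in Stage 2, and 47.6, 43.7 and 53.6 in iPSC. MEF and Stage 2 libraries overlapped at this promoter, and its iPSC against MEF difference was 0.28 (adjusted p = 0.0960), or -1.12 when scaled to all reads. The other 4 tested regions averaged between 0.644 and 2.90 CPM in MEF. The region at chr11:108910851-108911400, 8949 bp upstream, averaged 1.43, 24.2, 10.5 and 13.6 CPM across MEF, Stage 1, Stage 2 and iPSC, a log2 difference of 4.13 from MEF to Stage 1 and of -1.23 ± 0.28 from there to Stage 2. A second upstream region, chr11:108909601-108910050, averaged 1.43, 14.8, 7.71 and 13.0 CPM, with -0.98 ± 0.33 between the stages. The region 4752 bp past the RefSeq start, chr11:108925101-108925700, averaged 2.90, 17.1, 6.17 and 10.4 CPM and had the most negative log2 difference between the stages of all 54 tested regions, -1.44 ± 0.33. The exception was chr11:108943751-108944250, 23402 bp past the start, which averaged 0.644 CPM in MEF and then 8.54, 9.49 and 9.20, with 0.12 ± 0.35 between the stages, or -0.26 when scaled to all reads. The sixth region, downstream of the gene, had too few reads to be tested.

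Lef1 lies at chr3:131110297-131224357 on the plus strand. Summed over 9 regions, 1 of them shared with Hadh, it had 25.4, 29.5 and 30.5 CPM in MEF, 61.2, 85.7 and 86.9 in Stage 1, 124, 141 and 126 in Stage 2, and 92.6, 98 and 93.2 in iPSC. The groups did not overlap under trimmed-mean scaling, in the order MEF, Stage 1, iPSC, Stage 2. In log2 units Stage 1 was 1.47 ± 0.13 above MEF, Stage 2 was 0.74 ± 0.12 above Stage 1 and iPSC was -0.46 ± 0.12 from Stage 2. From MEF to iPSC the difference was 1.75 ± 0.13 (adjusted p = 1.27e-20), which shrank to 0.08 (adjusted p = 0.763) when libraries were scaled to all reads. With that scaling Stage 1 was 0.51 above MEF, so Lef1 in iPSC lay below Stage 1. Its signal was 2.90, 3.97, 5.03 and 2.86 times the density outside the regions in MEF, Stage 1, Stage 2 and iPSC.

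A single region carried much of the Lef1 step between the stages. This region, chr3:131102051-131102750, lies 7547 bp upstream of the promoter start. It had 0.594, 0.680 and 2.41 CPM in MEF, 3.78, 7.82 and 10.4 in Stage 1, 39.1, 47.4 and 38.4 in Stage 2, and 19.2, 18.1 and 19.98 in iPSC, from 12, 31, 207 and 73 reads per group. No library of any of the 4 groups overlapped with another group. Its log2 difference between Stage 1 and Stage 2, 2.46 ± 0.27, was the most positive of the 54 tested regions, and iPSC lay at -1.13 ± 0.23 from Stage 2. Without it the region CPM of Lef1 summed to 32.2 ± 2.6, 70.2 ± 10.4, 89.8 ± 4.88 and 72.5 ± 3.97 (SD, n = 3) across MEF, Stage 1, Stage 2 and iPSC, and the log2 ratio of Stage 2 to Stage 1 went from 0.74 to 0.35. With only the regions that overlap the gene itself it was 0.19.

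The other Lef1 regions moved less between the stages. The promoter region, chr3:131110051-131110550, averaged 6.45, 9.90, 16.5 and 12.3 CPM in MEF, Stage 1, Stage 2 and iPSC, with 0.74 between the stages. With libraries scaled to all reads this region was at -0.08 in Stage 1 against MEF and -0.40 in iPSC against MEF. The region at chr3:131112001-131112700, just before another Lef1 start, holds 18.8% of the gene's signal and differed little: it averaged 14.4, 14.7, 16.6 and 16.9 CPM in the same order of groups, with 0.20 between the stages, or -0.20 when scaled to all reads. The region 3947 bp upstream averaged 4.24, 7.89, 14.3 and 11.2 with 0.82. Past the 3′ end, the region shared with Hadh had a difference of 0.93. The region chr3:131144101-131144650 inside the gene averaged 0.828, 13.7, 14.3 and 5.50 CPM for MEF, Stage 1, Stage 2 and iPSC, with log2 differences of 0.01 between the stages, or -0.36 when scaled to all reads, and of -1.37 between Stage 2 and iPSC. This last difference is a description because of the selection, and its edgeR call was lost without any 1 of the 6 libraries and when scaled to all reads. The region at the internal start, chr3:131156301-131156850, which begins 7 bp past that start, averaged 1.93, 11.8, 8.4 and 6.81 CPM and was the only tested Lef1 region with a lower Stage 2 value under trimmed-mean scaling (-0.43), with overlapping libraries.

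**Figure D2:**
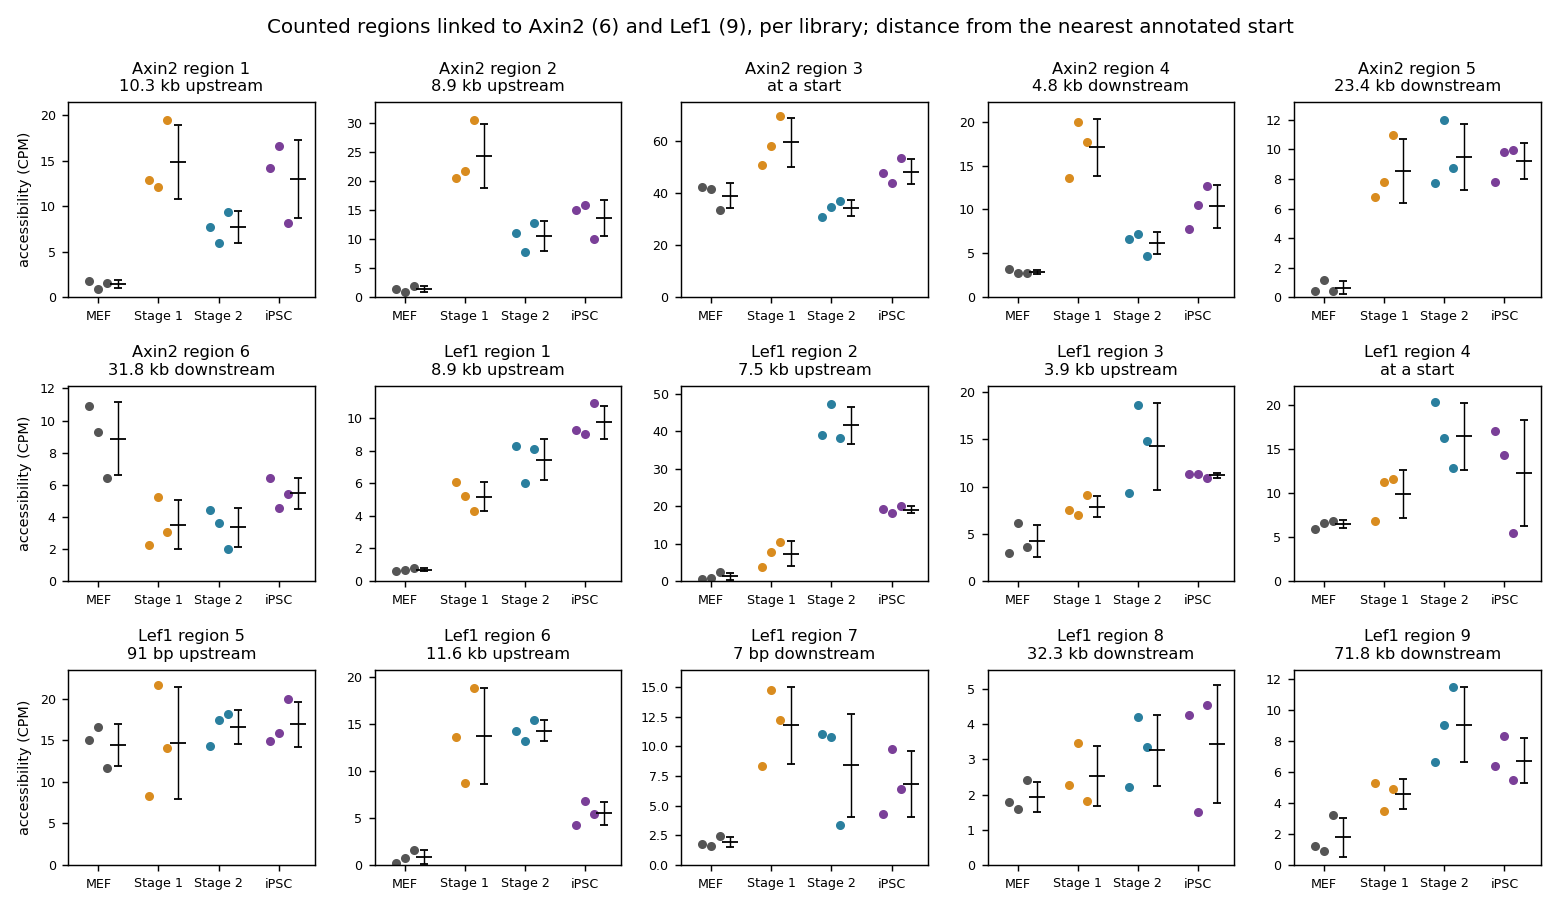
CPM of every region of Axin2 and Lef1 in each library, with 1 panel per region titled by its distance to the nearest start; points are libraries, the mark and bar are the mean ± SD of 3, and each linear axis starts at 0 with its own range. The Lef1 region 7547 bp upstream averages 7.32 CPM in Stage 1 and 41.6 in Stage 2, while 4 of the 5 tested Axin2 regions are lower in Stage 2.

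Ctnnb1, which encodes β-catenin, lies at chr9:120933400-120960507 on the plus strand. Its promoter region, chr9:120933001-120933850, had 28.3, 52.6 and 36.1 CPM in MEF, 18.9, 21.7 and 27.5 in Stage 1, 22.0, 19.8 and 17.5 in Stage 2, and 14.9, 18.1 and 17.3 in iPSC. MEF replicate 2 was the highest library, and all MEF libraries were above all others. The region fell by 0.76 ± 0.20 (log2) between MEF and Stage 1 (adjusted p = 0.000300), a call that was lost without MEF replicate 2 (-0.41, adjusted p = 0.0693), with DESeq2 (-0.40, adjusted p = 0.186), without the filter on low counts (-0.25, adjusted p = 0.278) and in a fit of those 2 groups alone (-0.41, adjusted p = 0.0819). Between MEF and iPSC it fell by 1.22 ± 0.21 (adjusted p = 3.33e-07). A region past the 3′ end that also lies in the reach of Ulk4 went the other way, from 1.42 CPM in MEF to 9.21 in Stage 1 (2.65, adjusted p = 2.94e-08). That region was listed in Stage 1 alone, so its difference is not independent of the listing. Summed over 3 regions, Ctnnb1 had 38.8 ± 10.2, 38.1 ± 4.60, 31.1 ± 1.20 and 27.9 ± 4.2 CPM (SD, n = 3) in MEF, Stage 1, Stage 2 and iPSC. Stage 1 differed from MEF by -0.02 ± 0.16 (adjusted p = 0.922) and iPSC from MEF by -0.48 ± 0.18 (adjusted p = 0.0163), a call lost without MEF replicate 2 (-0.21, adjusted p = 0.342), without iPSC replicate 1 (-0.33, adjusted p = 0.184) and with DESeq2 (-0.48, adjusted p = 0.0613). When scaled to all reads, the summed Stage 1 value differed from MEF by -0.96 (adjusted p = 0.000903).

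Tcf7, a TCF/LEF gene that can also be transcribed as a short form without the β-catenin contact, lies at chr11:52246527-52283383 on the minus strand. It had 21.4, 28.2 and 29.1 CPM in MEF, 32.1, 32.1 and 26.1 in Stage 1, 25, 30.9 and 24.3 in Stage 2, and 25.3, 20.2 and 28.5 in iPSC. The ranges of the 4 groups overlapped. The Stage 1 against MEF difference was 0.21 ± 0.18 (adjusted p = 0.303), or -0.73 (adjusted p = 0.0151) when scaled to all reads. The iPSC against MEF difference was -0.08 ± 0.19 (adjusted p = 0.737), or -1.73 (adjusted p = 1.08e-08) when scaled to all reads. Its promoter region averaged 12.3, 17.2, 16.0 and 13.8 CPM, and Stage 1 differed from MEF there by 0.50 (adjusted p = 0.0633). That difference passed the threshold with DESeq2 (0.87, adjusted p = 0.00888), without the filter (1.01, adjusted p = 0.000338), in a fit of the 2 groups (0.85, adjusted p = 0.00268) and without MEF replicate 2 (0.78, adjusted p = 0.0110), Stage 1 replicate 1 (0.65, adjusted p = 0.0381) or Stage 1 replicate 2 (0.68, adjusted p = 0.0277), and it was -0.20 when scaled to all reads.

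Tcf7l1, chr6:72626371-72789045 on the minus strand, is the gene of the 9 with the most regions, 25, of which 22 lie in the gene. Its summed CPM was 218, 212 and 221 in MEF, 257, 248 and 242 in Stage 1, 280, 276 and 288 in Stage 2, and 270, 250 and 274 in iPSC. The 3 later groups were above MEF in every library and Stage 2 was above Stage 1 (0.17, or -0.19 when scaled to all reads), but the differences were small. Stage 1 differed from MEF by 0.20 ± 0.08 (adjusted p = 0.0244) and iPSC from MEF by 0.29 ± 0.08 (adjusted p = 0.00147), and these turned to -0.76 and -1.39 when scaled to all reads. The Stage 1 call was lost without MEF replicate 2 (0.17, adjusted p = 0.110), Stage 1 replicate 1 (0.18, adjusted p = 0.0689) or Stage 1 replicate 3 (0.20, adjusted p = 0.0573), and with only the regions that overlap the gene (0.12, adjusted p = 0.205).

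Under the small difference of the Tcf7l1 sum, single regions differed in both directions. Of its 19 tested regions 9 opened and 6 closed between MEF and Stage 1, where 40.2% of all tested regions opened and 40.3% closed. The promoter region was at 37.0, 32, 36.2 and 33.2 CPM in MEF, Stage 1, Stage 2 and iPSC, and Stage 1 differed from MEF there by -0.18 (adjusted p = 0.311), with the sign turned with DESeq2 (0.18), without the filter (0.33) and in a fit of the 2 groups (0.17). When scaled to all reads this difference was -0.91 and passed the edgeR test (adjusted p = 0.00545). The strongest MEF region, chr6:72659551-72660500 deep in the gene, fell by 2.77 ± 0.24, from 45.2 CPM to 6.58 in Stage 1 (adjusted p = 1.93e-18), and averaged 5.46 in Stage 2 and 8.60 in iPSC. It was listed in MEF alone, so its fall is not independent of the listing. In the other direction the region 5656 bp upstream, chr6:72794701-72795550, rose from 1.73 CPM to 21 (3.85, adjusted p = 1.47e-17) and averaged 22.9 and 23.8 in Stage 2 and iPSC. The region 1245 bp past the start, chr6:72787151-72787800, rose from 3.48 to 20.5 CPM (2.59, adjusted p = 7.35e-14) and averaged 34.7 in Stage 2 and 20.6 in iPSC.

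Tcf7l2, chr19:55741797-55933659 on the plus strand, had 169, 168 and 178 CPM in MEF, 122, 122 and 111 in Stage 1, 107, 110 and 122 in Stage 2, and 151, 124 and 162 in iPSC. Every MEF library was above every library of the later groups, and iPSC replicate 2 lay close to the Stage 1 and Stage 2 libraries. The sum fell by 0.54 ± 0.10 between MEF and Stage 1 (adjusted p = 8.93e-07). It was 0.36 ± 0.11 higher in iPSC than in Stage 2 (adjusted p = 0.0212). This call was lost without any 1 of 4 libraries (adjusted p from 0.0607 to 0.103 without Stage 2 replicate 1 or 2 or iPSC replicate 1 or 3). The call was also lost when scaled to all reads (0.03, adjusted p = 0.955) and without regions shared between genes (0.28, adjusted p = 0.0901). No Tcf7l2 region is shared, so in that last fit only the scaling and the estimate of the spread changed for this gene. The sum was -0.24 ± 0.09 in iPSC against MEF (adjusted p = 0.0225). That call was lost without MEF replicate 2 or 3 or iPSC replicate 1 or 2 (adjusted p from 0.0513 to 0.351) and with DESeq2 (adjusted p = 0.0510).

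As in Tcf7l1, the promoter region of Tcf7l2 differed little between the groups while other regions inside and upstream of the gene moved far. The promoter region averaged 28.6, 32.4, 26.0 and 30.4 CPM, and Stage 1 differed from MEF there by 0.18 (adjusted p = 0.342), or by -0.54 when scaled to all reads, and by 0.55 with DESeq2 (adjusted p = 0.0152), 0.69 without the filter (adjusted p = 0.000744) and 0.54 in a fit of the 2 groups (adjusted p = 0.00659). A pair of regions before the internal start closed: chr19:55873051-55873800 fell by 3.35, from 23 CPM to 2.10, and chr19:55876451-55877050 fell by 3.62 ± 0.45, from 15.6 to 1.20, the most negative value of the 54 tested regions. The first averaged 2.35 CPM in Stage 2 and 1.79 in iPSC, and the second 3.94 and 3.57. Both were listed in MEF alone and had enough reads for the test only there, so these falls are a description. The most positive value of the tested regions was also at this gene, 5360 bp upstream at chr19:55736151-55736450, with 0.285 CPM in MEF from 3 reads and 7.31 in Stage 1 from 30 reads (4.56 ± 0.63). This region was listed in Stage 1 alone and had enough reads for the test only there, so the difference is a description. The ratio of the scaled reads was 29.1, with an exact (Clopper-Pearson) 95% interval for counting error only of 9.04 to 149. Of 13 tested Tcf7l2 regions 3 opened and 7 closed between MEF and Stage 1, against 40.2% and 40.3% of all regions. The one at the internal start, which averaged 7.34, 3.36, 6.17 and 8.36 CPM, lost its call (-1.12, adjusted p = 0.0139) with DESeq2 (adjusted p = 0.179), without the filter (adjusted p = 0.207), in a fit of the 2 groups (adjusted p = 0.107) and without Stage 1 replicate 1 (adjusted p = 0.0839) or 3 (adjusted p = 0.236).

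**Figure D3:**
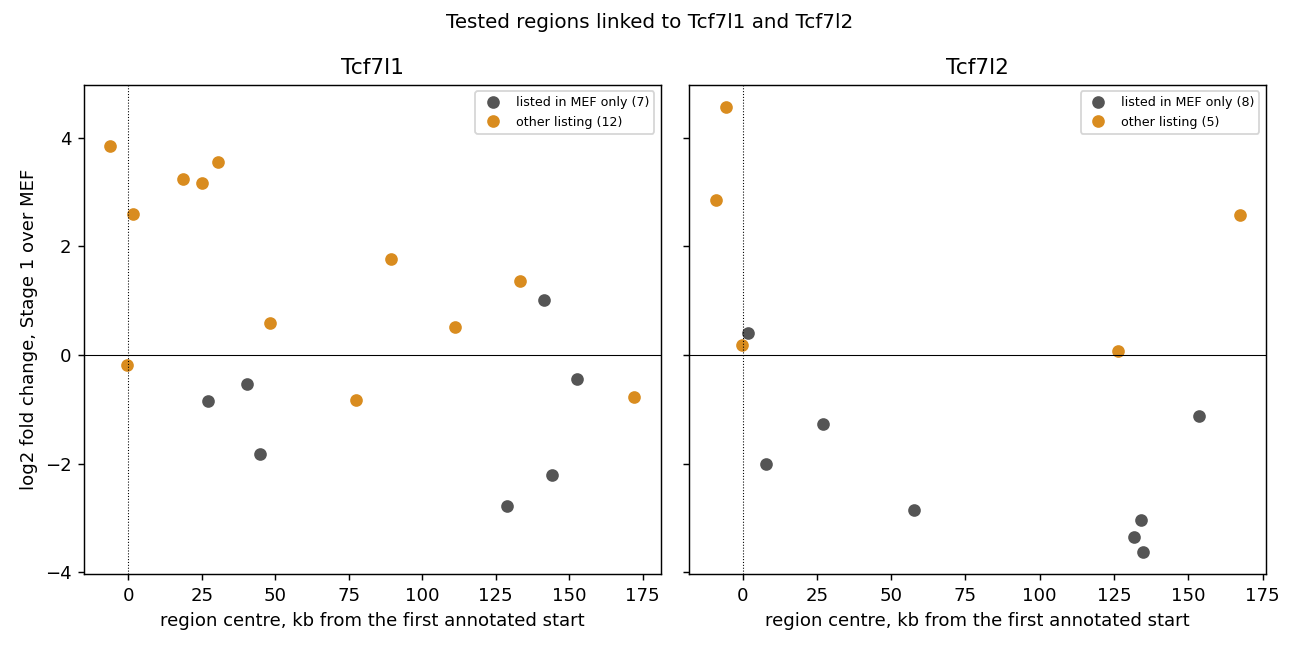
Log2 difference of each tested region of Tcf7l1 and Tcf7l2 between Stage 1 and MEF (vertical axis) against the distance of its centre in kb from the first annotated start (horizontal axis, dotted line at the start); dark points are regions listed in MEF alone and orange points all others. The regions at the first starts sit near no change (-0.18 and 0.18), and the other regions reach from 4.56 to -3.62.

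Sp5, chr2:70474923-70477726 on the plus strand, had 10.2, 7.39 and 8.43 CPM in MEF, 16.4, 10.7 and 18.2 in Stage 1, 23.9, 22.6 and 27.0 in Stage 2, and 15.9, 18.7 and 19 in iPSC. Every later library was above every MEF library and Stage 2 was highest. Stage 1 was 0.82 ± 0.25 above MEF (adjusted p = 0.00293) and iPSC 1.02 ± 0.25 above MEF (adjusted p = 0.000253), and these turned to -0.16 and -0.66 when scaled to all reads. The first call was lost without Stage 1 replicate 3 (0.63, adjusted p = 0.0737). The log2 difference of Stage 2 from Stage 1 was 0.65 ± 0.24.

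The 2 Sp5 regions parted in iPSC. The promoter region, chr2:70474851-70475300, overlaps 72 bases of the window printed above and had 6.14, 4.53 and 6.83 CPM in MEF, 9.83, 7.82 and 9.15 in Stage 1, 13.8, 12 and 14.8 in Stage 2, and 4.98, 6.78 and 4.54 in iPSC, where all 3 libraries lay within the MEF range. It fell by 1.29 ± 0.36 between Stage 2 and iPSC (adjusted p = 0.0410), a call lost without any 1 of the 6 libraries (adjusted p from 0.0573 to 0.163) and when scaled to all reads (-1.57, adjusted p = 0.0752). The second region, 1528 bp past the start, had 5.94, 4.31 and 2.81 CPM in MEF, 6.80, 2.61 and 9.15 in Stage 1, 10.5, 10.8 and 12.1 in Stage 2, and 10.7, 11.3 and 13.6 in iPSC. It was 1.33 higher in iPSC than in MEF (adjusted p = 0.000185), or -0.06 when scaled to all reads.

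T (brachyury), chr17:8434423-8442496 on the plus strand, was represented by 1 region, chr17:8429901-8430350, 4073 bp upstream, which also lies within 10 kb of T2 and LOC115486424, and no counted region covered its promoter. It had 0.335, 0.379 and 0.351 CPM in MEF, 4.48, 8.03 and 6.68 in Stage 1, 13.1, 9.5 and 8.11 in Stage 2, and 12.3, 10.1 and 5.71 in iPSC, from 5, 26, 52 and 36 reads. The MEF libraries lay far below all others, at 0.37 times the density outside the regions, and the 3 later groups had 3.37, 4.06 and 2.93 times that density. From MEF to iPSC the log2 difference was 4.56 ± 0.53 (adjusted p = 6.02e-12). Stage 2 and iPSC overlapped and differed by -0.10 ± 0.35 (adjusted p = 0.896), and the log2 difference of Stage 2 from Stage 1 was 0.71 ± 0.37. Earlier results of these data already named T and Evx1, so their Stage 1 against MEF values, 3.96 ± 0.58 and 2.2 ± 0.22, are given without a test. Their iPSC against MEF tests use the same MEF libraries and so are not independent of that choice.

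Evx1, chr6:52313498-52318389 on the plus strand, had 5.69, 6.06 and 5.62 CPM in MEF, 25.4, 26.8 and 28.6 in Stage 1, 30.5, 32.7 and 29.7 in Stage 2, and 23.2, 17.9 and 17.1 in iPSC. The MEF libraries were below all others and the 3 iPSC libraries were below all of both stages. Its region 1103 bp past the start, chr6:52314601-52315100, averaged 0.851, 13.7, 17.2 and 9.51 CPM, and the region 6948 bp upstream averaged 5.95, 13.1, 14.0 and 9.29. From MEF to iPSC the sum rose by 1.74 ± 0.25 (adjusted p = 4.47e-09), which shrank to 0.07 (adjusted p = 0.833) when scaled to all reads. It fell by 0.66 ± 0.22 from Stage 2 to iPSC (adjusted p = 0.0391), a call lost without any 1 of 5 libraries (adjusted p from 0.0617 to 0.166, all but iPSC replicate 1), with only the region that overlaps the gene (-0.77, adjusted p = 0.103) and when scaled to all reads (-1.0, adjusted p = 0.110). Stage 2 was 0.20 ± 0.20 above Stage 1, or -0.17 when scaled to all reads.

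Counted together, 6 of the 9 genes passed the test as more open in Stage 1 than in MEF, where 33.1% of all 17540 tested genes did, and 1, Tcf7l2, as less open, where 31.6% did. Of those 6, Axin2, Lef1, T and Evx1 were chosen with such results known, and of the other 5 genes 2 were more open and 1 less open. Between iPSC and MEF the counts were 6 and 2, against 32.1% and 33.7% of genes. Without Axin2, Lef1, T and Evx1 they were 2 and 2 of 5 genes. Between iPSC and Stage 2, 2 genes were more open (Axin2 and Tcf7l2) and 2 less open (Lef1 and Evx1), where 4.97% and 4.38% of genes were called. The Axin2 and Lef1 calls rest on libraries that the set was selected on, and without these genes the counts were 1 and 1 of 7. The Lef1 call was lost without Stage 2 replicate 2, without iPSC replicate 1, with only the regions that overlap the gene and when scaled to all reads. With libraries scaled to all reads the counts became 2 and 4 for Stage 1 against MEF, 1 and 6 for iPSC against MEF, and 0 and 0 for iPSC against Stage 2.

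**Figure D4:**
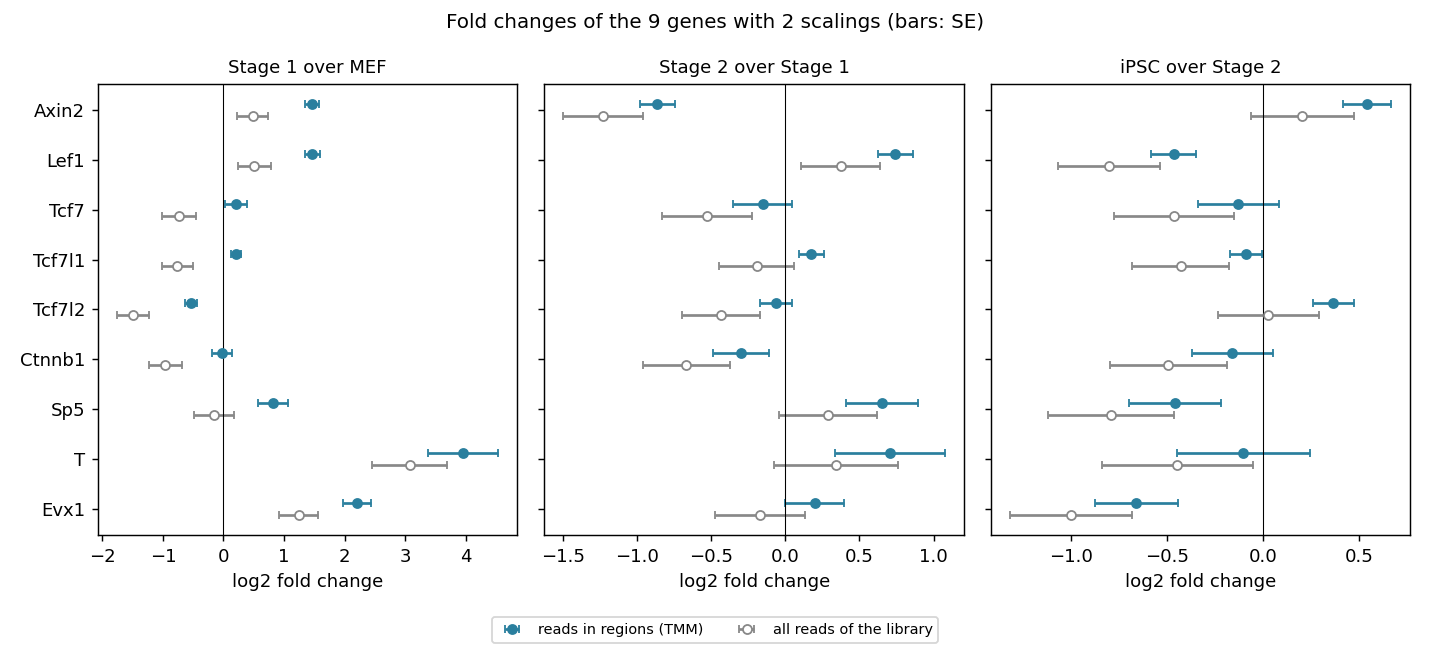
Log2 difference of each of the 9 genes in 3 comparisons, Stage 1 over MEF, Stage 2 over Stage 1 and iPSC over Stage 2, with trimmed-mean scaling of reads in regions (filled) and with scaling to all reads of a library (open); bars are SE. Axin2 is below 0 (-0.86 and -1.23) and Lef1 above 0 (0.74 and 0.37) between the stages with both scalings. When scaled to all reads, the Lef1 region 7547 bp upstream was at 2.08 and the other tested Lef1 regions from -0.81 to 0.55. Sp5 in Stage 1 over MEF is at 0.82 and -0.16.

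Of the 75 regions 54 had enough reads to be tested, and 18 of the 21 left out were listed in MEF alone, as were 17 of those tested. A region could be listed, or have enough reads, in 1 group only. Part of its difference from other groups was then set by this choice, for the members as for all regions. Between MEF and Stage 1, 27 opened, 14 closed and 13 did not pass, with a median log2 difference of 0.62. Over all tested regions 40.2% opened and 40.3% closed, with a median of 0.03. Axin2 gave 5 of the 27 and Lef1 6, from libraries the set was selected on. Of the 41 tested regions of the other genes 16 opened and 14 closed. Without T and Evx1 too, which were chosen with such results known, 13 of 38 regions opened and 14 closed, with a median of 0.13. Between MEF and iPSC, 26 opened and 12 closed (median 0.54), where 40.8% of all regions opened and 40.8% closed (median 0.01). Without Axin2 and Lef1 these were 15 and 12 of 41 (median 0.13), and without T and Evx1 too 13 and 12 of 38 (median 0.10). Between Stage 2 and iPSC, 0 opened and 3 closed, against 0.545% and 1.06% of all regions. At an unadjusted p under 0.05 the edgeR counts were 4 and 6, and DESeq2 called 0 and 2. The 3 were the Lef1 regions 7547 bp upstream and at chr3:131144101-131144650, which are a description because of the selection, and the Sp5 promoter region, so that 1 of the 41 regions outside Axin2 and Lef1 closed. In the deposited lists of open regions, 35 of the 75 (46.7%) were listed in MEF alone, against 56.3% of all regions, and 6 (8%) were in the lists of all 4 groups, against 11%.

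For these genes, as for all regions, the differences from MEF were smaller at start sites than elsewhere. Of 10 tested regions that overlap a window from 250 bases before to 50 after a start, the median size of the log2 difference between MEF and Stage 1 was 0.62, and 4 passed the test, against a median of 0.48 and 54.6% called among all such regions. Of the 44 others the median was 2.55 and 37 passed, against 2.36 and 84.8%. Both counts include Axin2 and Lef1 regions, which are a description because of the selection. The 4 called at starts were the Axin2 and Ctnnb1 promoter regions and the regions at the internal Lef1 and Tcf7l2 starts. Among these, the Ctnnb1 and Tcf7l2 calls were lost in several other settings. For iPSC against MEF the medians were 0.20 at starts, where all such regions had 0.63, and 2.10 elsewhere, where all had 2.04.

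The rest of the pathway was described by 3 lists, one of transducers and cofactors, one of targets and feedback genes and one of primitive streak genes, with 65 of 67 genes tested. Between MEF and Stage 1, 18 of the 65 rose and 24 fell, against 33.1% and 31.6% of all genes. Among 28 transducers and cofactors 4 rose and 13 fell, with a median log2 difference of -0.20, and Csnk1e, a kinase that acts through Dishevelled, fell from 74.1 to 36.7 CPM (-1.02, adjusted p = 9.08e-10). Jup, which encodes plakoglobin, a relative of β-catenin, rose from 76.1 to 131 CPM (0.80, adjusted p = 5.72e-10), but was at -0.14 (adjusted p = 0.616) when scaled to all reads. Among 23 targets and feedback genes 7 rose and 9 fell (median -0.14). The homeobox target Cdx4 rose from 0.292 to 18.4 CPM (5.74, adjusted p = 2.76e-20) and Sp8, a relative of Sp5, from 40.0 to 183 CPM (2.21, adjusted p = 2.22e-31). Among 14 tested primitive streak genes 7 rose and 2 fell (median 0.54), with the forkhead gene Foxa2 rising from 8.17 to 46.0 CPM (2.56, adjusted p = 3.36e-21) and Nodal, a TGF-β family ligand, from 7.68 to 38.1 CPM (2.37, adjusted p = 3.83e-18). Csnk1e, Cdx4, Sp8, Foxa2 and Nodal kept their direction and their calls when libraries were scaled to all reads, but over the lists 6 of the 65 genes then rose and 47 fell.

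In the later comparisons fewer of these pathway genes changed. Between Stage 1 and Stage 2, 8 of the 65 rose and 3 fell, where 7.74% and 8.2% of all genes did. Twist1, a mesenchymal transcription factor counted here as a target, rose from 14.2 to 28.6 CPM (1.04, adjusted p = 0.000446) and the homeobox target Cdx1 from 41 to 61.6 (0.58, adjusted p = 0.00396). Csnk1e rose again from 36.7 to 57.1 CPM (0.64, adjusted p = 0.00235), Pygo1, a nuclear cofactor of β-catenin, from 30.5 to 43.5 (0.51, adjusted p = 0.0308) and the homeobox gene Evx2 from 30.9 to 44.6 (0.52, adjusted p = 0.0319). Wnt8a, a ligand of the primitive streak, fell by 0.63 from 28.4 to 18.1 CPM (adjusted p = 0.0440). Between Stage 2 and iPSC 2 rose and 4 fell, against 4.97% and 4.38% of all genes. Notum, a secreted enzyme that inactivates Wnt ligands, fell by 0.52 (73.5 to 51.3 CPM, adjusted p = 0.0133), and Nkd1, a feedback inhibitor that acts on Dishevelled, rose by 0.50 (50.9 to 72.3 CPM, adjusted p = 0.0199). The kinase gene Gsk3a of the destruction complex fell by 0.56 (106 to 72.2 CPM, adjusted p = 0.00205), the corepressor gene Tle1 by 0.33 (167 to 132 CPM, adjusted p = 0.0335) and the T-box gene Tbx6 by 0.50 (64.5 to 45.6 CPM, adjusted p = 0.0245). Of the genes named here for these comparisons the direction held when libraries were scaled to all reads, but the call held only for Wnt8a (adjusted p = 0.0342). Between MEF and iPSC 24 of the 65 rose and 28 fell, against 32.1% and 33.7% of all genes. Gsk3a fell by 0.96 (141 to 72.2 CPM, adjusted p = 3.47e-12), and Pygo1 rose from 26.3 to 51.7 CPM (0.96, adjusted p = 5.29e-08) but was at -0.70 (adjusted p = 0.0118) when scaled to all reads. Foxa2 rose from 8.17 to 56.4 CPM (2.84, adjusted p = 7.36e-24) and Nodal from 7.68 to 40.2 (2.46, adjusted p = 1.30e-18). Cdx4 (0.292 to 16.6 CPM, 5.62) and Sp8 (40.0 to 192 CPM, 2.28) again had the largest differences of the target list.

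The tested genes whose log2 CPM followed Axin2 most closely over the 12 libraries, among those that share no region with it, were Spata7 (Pearson r = 0.970), Pdp2 (0.964) and Pramel1 (0.962). Spata7 averaged 27.4, 79.7, 53.1 and 69.8 CPM in MEF, Stage 1, Stage 2 and iPSC, the same order of groups as Axin2. The genes closest to Lef1 were Bub1b (0.989), a spindle checkpoint kinase, Brd1 (0.987), a bromodomain protein, and Tmprss13 (0.987), a membrane serine protease. Bub1b averaged 19.4, 48.4, 80.8 and 60.8 CPM and Tmprss13 1.48, 10.7, 35.2 and 21.2. The points of each correlation are libraries that share their depth and scaling within a group, and the correlations only describe these 12 libraries.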

How the data were processed

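The deposited files hold a read count per region and library for ATAC-seq of 4 groups with 3 libraries each; the counts are the authors' raw numbers of reads, as whole values with no scaling, and each of the 4 stage lists holds only intervals found in all 3 replicates of that group. The submitters' processing notes name the build mm10 and, without role or order, DESeq2 1.12.4, HTSeq 0.5.4p3, Bowtie2 2.2.6, SAMtools 0.1.19 and Picard 2.6.0. How peaks were called, whether duplicates were removed and whether read ends were shifted is not given in the sources used here. Reads outside the regions (77.7% to 95.5% of a library) and ambiguous reads (0.0311% to 0.230%) stayed out of library sizes and tests.

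Regions were joined to protein-coding genes of GRCm38.p6, which is mm10, and counts were summed per gene. Regions and genes were fitted and scaled separately with edgeR 4.0.16 in R 4.3.3 (trimmed-mean scaling, filterByExpr with a minimum count of 10 and total of 15, robust quasi-likelihood F tests, 1 model of 12 libraries, Benjamini-Hochberg adjusted p under 0.05 called), so region CPM do not add up exactly to gene CPM. This left 71069 regions and 17540 genes. Fold changes are log2, with SE from the F statistic. The density outside the regions is reads in no region per kb, with chromosome lengths taken from the last gene end. Scripts were tested on simulated counts.

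The members and lists were chosen with earlier results of these data known. Named were all 9 genes; for each its strongest region, its regions at a start and the most extreme regions of a comparison; for each list and comparison up to 2 called genes with the largest change and no overlap between libraries; and the 3 genes closest to Axin2 and to Lef1. Some named regions and genes fall outside this rule and were chosen after their values were seen: the regions of Axin2 and Lef1 beyond the strongest, those of Tcf7l1 5656 bp upstream and 1245 bp past the start, and those of Ctnnb1, Sp5 and Evx1 away from the start.

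The labels do not state that a group's libraries are from separate mice or cultures. The p-values therefore rest on the spread of these libraries, and that spread may be technical. Each replicate pair differed by more than sampling noise over regions (chi-square per degree of freedom from 1.02, for Stage 1 replicates 2 and 3, to 2.17). Alternatives were relative log expression size factors, scaling to all reads, DESeq2 1.42.0, no filter, the 2 compared groups alone, a replicate block, each library left out, only regions overlapping the gene, and no regions shared between genes. Leaving out 1 Lef1 region was added after the data were seen. Counting error only is covered by the read numbers given.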

Additional observations from a re-analysis of the deposited data

How the results depend on the processing

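The number of calls against MEF, and the sign of small differences, depended most on the scaling. With all reads of a library as its size, 69 member regions passed the filter on low counts in place of 54, so the region counts differ in their set of regions too. Stage 1 against MEF gave 19 more and 33 less open member regions in place of 27 and 14, 2 more and 4 less open member genes in place of 6 and 1, and 6 rising and 47 falling pathway genes in place of 18 and 24. iPSC against MEF gave 17 and 42 regions in place of 26 and 12, 1 and 6 genes in place of 6 and 2, and 4 and 55 pathway genes in place of 24 and 28. iPSC against Stage 2 gave 1 less open region in place of 3, 0 and 0 genes, and 0 and 0 pathway genes in place of 2 and 4, and Stage 2 against Stage 1 gave 0 and 1 pathway genes in place of 8 and 3. The Stage 2 against Stage 1 value was then -1.23 for Axin2 and 0.37 for Lef1, and Lef1 in iPSC lay below Stage 1. This scaling was not run without the upstream Lef1 region that moved most. Among the differences reported, the signs that turned were those of Tcf7 (-0.73), Tcf7l1 (-0.76), Sp5 (-0.16), the promoter regions of Axin2 (-0.14), Tcf7 (-0.20), Tcf7l2 (-0.54) and Sp5 (-0.081) for Stage 1 against MEF, of Tcf7l1 (-0.19), Evx1 (-0.17), the Axin2 region 23402 bp past the start (-0.26) and the Lef1 regions at chr3:131112001-131112700 (-0.20) and chr3:131144101-131144650 (-0.36) for Stage 2 against Stage 1, and of Axin2 (-0.55), Tcf7l1 (-1.39), Sp5 (-0.66), the Axin2 promoter region (-1.12) and the second Sp5 region (-0.063) for iPSC against MEF. The Lef1 promoter region turned against MEF in Stage 1 (-0.08) and iPSC (-0.40), and in iPSC the Lef1 region at chr3:131112001-131112700 (-1.21) and the upstream Evx1 region (-0.73) did. The cause was not tested.

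DESeq2 gave 0 falling pathway genes for Stage 2 against Stage 1, 1 less open member gene (with no adjusted p for Evx1) and 1 rising pathway gene for iPSC against Stage 2, and 0 less open member genes for iPSC against MEF. With only regions that overlap a gene, Lef1 was at 0.19 between the stages, pathway genes there numbered 5 and 1, and iPSC against Stage 2 gave 0 less open member genes and 2 falling pathway genes. Without shared regions the counts were 4 rising pathway genes for Stage 2 against Stage 1, and 1 more open member gene and 0 rising pathway genes for iPSC against Stage 2. A fit of the 2 groups alone gave 1 and 5 member regions and 4 rising pathway genes for iPSC against Stage 2. Without the upstream region Lef1 was at 0.35. The Tcf7l1 promoter region turned to 0.18 with DESeq2, 0.33 without the filter and 0.17 in the fit of 2 groups. Tcf7l2 between the stages was at 0.039 with only regions that overlap the gene, and the Lef1 region at chr3:131144101-131144650, at 0.01, was slightly negative in 4 further settings.

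Leaving out 1 library at a time gave 24 to 29 and 12 to 16 member regions, 4 to 6 and 1 member genes, and 16 to 19 and 21 to 25 pathway genes for Stage 1 against MEF. The ranges were 25 to 26 and 10 to 14, 6 and 0 to 2, and 21 to 23 and 20 to 28 for iPSC against MEF, and 0 and 1 to 2, 1 to 2 and 0 to 1, and 0 to 3 and 1 to 2 for iPSC against Stage 2. Stage 2 against Stage 1 had 5 to 8 and 0 to 2 pathway genes, with Axin2 from -0.99 to -0.69 and Lef1 from 0.60 to 0.87. Signs that turned in some of these fits were those of Ctnnb1 for Stage 1 against MEF (-0.23 to 0.21), Tcf7 (-0.21 to 0.014) and T (-0.33 to 0.14) for iPSC against Stage 2, Tcf7 for iPSC against MEF (-0.22 to 0.068), the Tcf7l1 promoter region (-0.18 to 0.039) and, between the stages, Tcf7l2 (-0.12 to 0.0037), the Axin2 region 23402 bp past the start (-0.13 to 0.29) and the Lef1 regions at chr3:131112001-131112700 (-0.14 to 0.46) and chr3:131144101-131144650 (-0.27 to 0.25).

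Same-numbered libraries did not deviate together (correlations of deviations from -0.105 to 0.107), so the numbers were not taken as a pairing. With the replicate block, Stage 1 against MEF gave 26 and 14 member regions, Axin2 was at -0.86 and Lef1 at 0.75 between the stages, and no count of calls moved by more than 1.5 times. At this depth a region with few reads, such as that of T with 5 reads over the MEF libraries, gives wide errors.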
